A study of Mus musculus with 8 samples.

Results

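The 36 genes described here drive and police mitosis: they encode the kinases and cyclins of mitotic entry, the spindle assembly checkpoint, the centromere and kinetochore, the chromosomal passenger complex and the motors of the spindle and midzone. They were taken as a list of symbols, and all 36 were found by symbol among the 21631 protein-coding genes annotated on the autosomes and X. ATAC-seq, in which Tn5 transposase tags DNA that nucleosomes leave exposed, was run on Hepa-1c1c7, an established mouse hepatoma line. Cells were left untreated (0 µM) or received potassium chromate, a hexavalent chromium salt, at 0.1, 0.5 or 1 µM for 72 h, with 2 libraries per group and 8 in all. The series title names chromatin accessibility and CTCF sites in promoters as its subject. Nothing in the labels says whether libraries of a group came from separate cultures.

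The data analysed are 3 lists of regions, 1 for each treated dose, of 14401, 11130 and 15894 regions at 0.1, 0.5 and 1 µM. Each list is paired by its name with the untreated cells, which are therefore shared by all 3. The untreated cells enter only in this way, and no source used here states whether a listed region was more open than in them. Read depth is unknown, no value has a replicate error, and no test of a dose difference was possible. In the labels the 1 µM libraries have a prefix of their own, so prefix and dose cannot be told apart. Of 10 hepatocyte and hepatoma markers, Apoa2, Foxa2, Cebpb and Nr1h4 had a region at a gene end in every list, while Alb, Afp, Ttr, Apoa1, Hnf4a and Trf had none. Of 17 immune, stellate, fibroblast, endothelial and neuronal markers, Snap25 had one at 0.1 µM and Dcn at 0.5 and 1 µM.

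Mitotic genes are transcribed mainly in late S phase, G2 and mitosis. Their promoters are held down in resting cells by the DREAM complex and switched on by B-MYB with MuvB and by FOXM1. MuvB reaches DNA through a short element called the cell cycle genes homology region (CHR), and the factor NF-Y binds CCAAT boxes placed before it. At mitosis CDK1 with cyclin B drives entry, the checkpoint holds back the anaphase-promoting complex until kinetochores are attached, and separase then cuts cohesin.

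Promoter sequences from RefSeq (GRCm38.p6, the assembly of mm10) matched 29 of the 36 genes. Ccna2, Cdc25c, Spc24, Aurkb, Incenp, Kif20a and Tpx2 had no entry. The 250 bases before the start site are shown 5′ to 3′ for 6 genes, 4 covered by regions and 2 with no listed region, to set the motif content of both kinds side by side. Capitals mark the letters TTTGAA (CHR), TTCGAA (a CHR variant), CCAAT and TTCCCGC (an E2F core) on either strand. Cenpf lies at chr1:189688087-189688336 (minus strand), Mad2l1 at chr6:66534971-66535220 (plus), Cdc20 at chr4:118437344-118437593 (minus) and Plk1 at chr7:122159185-122159434 (plus). Ccnb2 lies at chr9:70421555-70421804 and Bub1 at chr2:127831860-127832109 (both minus).
Cenpf: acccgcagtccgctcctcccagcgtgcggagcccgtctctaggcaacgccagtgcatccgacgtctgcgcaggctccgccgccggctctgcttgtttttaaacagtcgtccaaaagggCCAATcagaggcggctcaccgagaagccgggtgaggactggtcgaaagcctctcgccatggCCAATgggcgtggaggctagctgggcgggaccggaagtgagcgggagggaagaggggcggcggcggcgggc
Mad2l1: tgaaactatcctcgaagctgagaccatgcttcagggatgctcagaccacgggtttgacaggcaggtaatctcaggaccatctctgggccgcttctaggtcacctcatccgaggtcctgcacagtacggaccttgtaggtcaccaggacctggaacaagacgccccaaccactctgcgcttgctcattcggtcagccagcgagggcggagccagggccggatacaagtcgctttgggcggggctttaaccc
Cdc20: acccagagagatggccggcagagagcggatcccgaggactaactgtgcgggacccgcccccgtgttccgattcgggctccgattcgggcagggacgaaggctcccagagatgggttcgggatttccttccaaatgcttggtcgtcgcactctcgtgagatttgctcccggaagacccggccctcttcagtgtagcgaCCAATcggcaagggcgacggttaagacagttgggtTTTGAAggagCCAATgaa
Plk1: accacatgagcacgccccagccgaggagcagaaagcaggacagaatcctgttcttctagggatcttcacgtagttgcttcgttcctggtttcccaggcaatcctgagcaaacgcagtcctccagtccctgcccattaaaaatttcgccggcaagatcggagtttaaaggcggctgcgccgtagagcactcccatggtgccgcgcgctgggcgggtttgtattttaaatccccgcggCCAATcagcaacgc
Ccnb2: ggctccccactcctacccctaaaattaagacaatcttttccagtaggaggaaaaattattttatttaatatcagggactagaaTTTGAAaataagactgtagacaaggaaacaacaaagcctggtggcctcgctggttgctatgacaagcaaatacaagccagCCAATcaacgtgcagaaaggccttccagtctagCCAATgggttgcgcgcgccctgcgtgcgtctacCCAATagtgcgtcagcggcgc
Bub1: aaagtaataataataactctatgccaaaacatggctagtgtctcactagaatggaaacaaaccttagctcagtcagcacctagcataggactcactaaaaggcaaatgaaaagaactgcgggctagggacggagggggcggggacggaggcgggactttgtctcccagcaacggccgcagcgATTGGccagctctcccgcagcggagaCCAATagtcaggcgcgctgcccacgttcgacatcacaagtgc
Listed regions covered 250 of these 250 bases of Cenpf at every dose. They covered 250, 249 and 250 bases of Cdc20 at 0.1, 0.5 and 1 µM, 250, 186 and 250 of Plk1, and 250, 174 and 242 of Mad2l1. No base of the Ccnb2 and Bub1 stretches lay in a listed region, although Ccnb2 shows 3 CCAAT boxes, whose first bases lie at -87, -54 and -21 from the start. The Mad2l1 stretch holds none of the capitalised motifs.

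A region within 1 kb of either gene end, the rule for the mitotic genes, was listed for 21 of 36 in the 0.1 µM list, 21 in that of 0.5 µM and 24 in that of 1 µM. These are 58.3%, 58.3% and 66.7% of the genes, against 19.5%, 18.7% and 23.0% of all protein-coding genes. Among the 13101 genes within the length range of the mitotic genes (4443 to 60978 bp) the shares were 22.3%, 21.8% and 26.5%. The share of mitotic genes was above the background in each list. The list was chosen with earlier results on cell cycle genes in view, so this excess is a description and not independent evidence. The authors' score of a region, an integer from 4 upwards on an unstated scale, serves here only to place it within its own list, as a percentile.

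**Figure D1:**
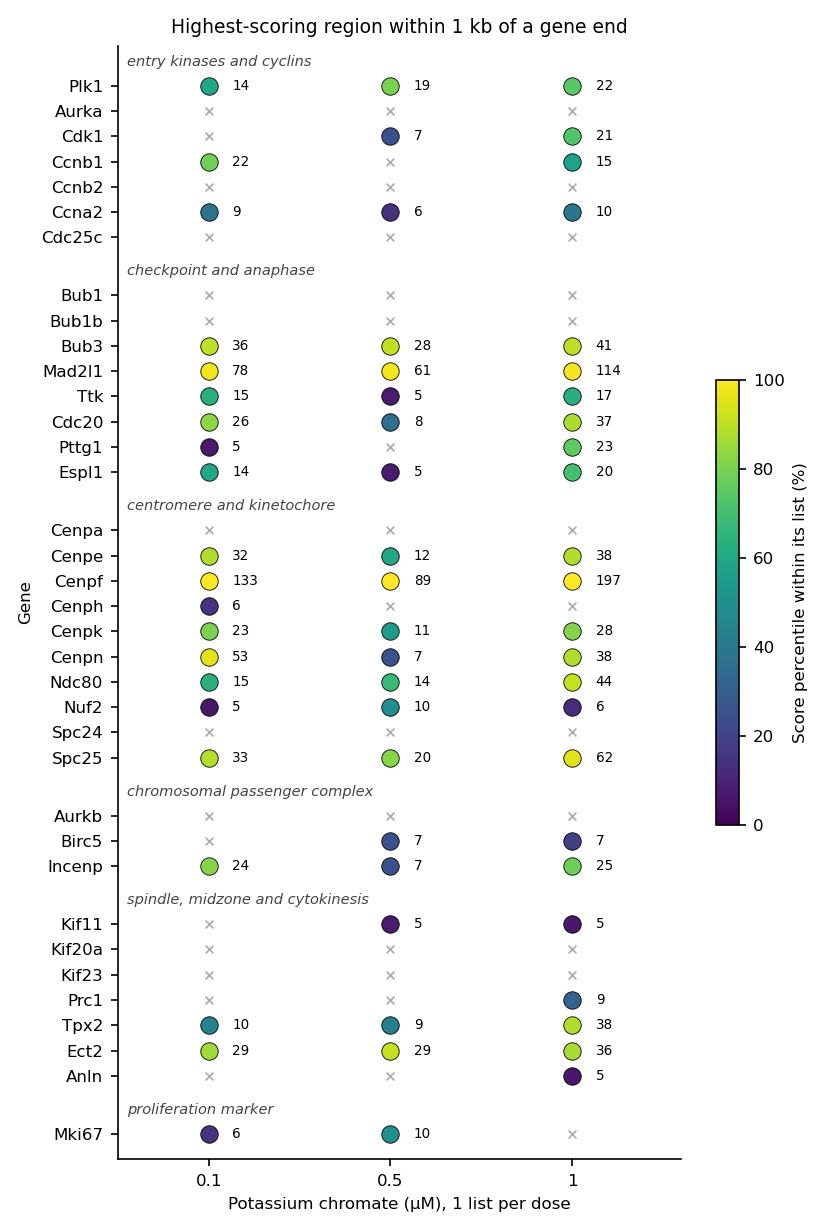
Rows are the 36 mitotic genes grouped by role and columns are the 3 doses of potassium chromate in µM. A filled circle marks a listed region within 1 kb of a gene end, with its deposited score beside it and its score percentile within that list as colour; a cross marks none. Cenpf and Mad2l1 are near the top of each list, and 10 genes have crosses throughout.

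Among the kinases and cyclins of mitotic entry, 3, 3 and 4 of 7 were listed in order of dose. Plk1, the Polo-like kinase needed for centrosome maturation and spindle assembly, had a region over its start in every list (scores 14, 19 and 22, percentiles 59.6, 79.8 and 74.1). At 0.5 µM the Plk1 signal was listed as a pair of regions of 229 and 316 bp, where 0.1 and 1 µM had 1 region each of 651 and 493 bp. Ccna2, the S and G2 cyclin, had a region in every list with scores of 9, 6 and 10. It lay inside the gene, its near edge 670, 670 and 709 bp from the gene end, and was also within 1 kb of an end of Bbs7. A window of 500 bp did not reach it.

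Cdk1, the catalytic partner of the mitotic cyclins, had a region over its start at 0.5 µM (score 7) and 1 µM (score 21). At 0.1 µM the nearest region to either end of Cdk1 was 121.8 kb away. Ccnb1, cyclin B1, had regions with scores of 22 at 0.1 µM and 15 at 1 µM, and none at 0.5 µM. Neither absence can be read as a closed site, since the lists end at a threshold that is not explained. Ccnb2, Cdc25c (the phosphatase that activates CDK1) and Aurka (the spindle pole kinase) had no listed region at a gene end at any dose.

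In the checkpoint and anaphase group, 6, 5 and 6 of 8 genes were listed. Mad2l1 encodes MAD2, which with BUBR1, BUB3 and CDC20 forms the mitotic checkpoint complex. Its region at chr6:66534925-66535907 (0.1 µM) scored 78, and those of 0.5 and 1 µM scored 61 and 114, at percentiles 98.0, 98.1 and 98.6. Bub3 scored 36, 28 and 41 (percentiles 90.1, 90.4 and 89.9). Cdc20, the activator of the anaphase-promoting complex, scored 26, 8 and 37, and Bub1b, the gene of BUBR1, had no region. Of the genes of the checkpoint complex, Mad2l1, Bub3 and Cdc20 were thus listed at every dose and Bub1b at none.

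Ttk, the MPS1 kinase that starts checkpoint signalling, had a region over its start at every dose, with scores of 15, 5 and 17. Espl1, separase, did likewise with scores of 14, 5 and 20, and is the only one of the 36 genes on chromosome 15. Pttg1, securin, the inhibitor of separase, had regions at 0.1 and 1 µM (scores 5 and 23) that ended before its start site. They lay inside the annotated gene, as does the start site used here, at 972 and 967 bp from the gene end. A window of 500 bp thus left Pttg1 without a region. Bub1, the kinase that recruits other checkpoint proteins, had none.

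The centromere and kinetochore genes held regions in 8, 7 and 7 of 10 cases in order of dose. Cenpf, which encodes a large outer kinetochore protein, carried the highest score of the 36 genes in each list. Its regions scored 133, 89 and 197 (percentiles 99.5, 99.4 and 99.7) and spanned chr1:189687857-189688587, chr1:189687942-189688478 and chr1:189687877-189688567. The NDC80 complex, which grips microtubule ends, has 4 subunits: Ndc80, Nuf2 and Spc25 had a region at every dose and Spc24 had none. Scores were 15, 14 and 44 for Ndc80, 33, 20 and 62 for Spc25, and 5, 10 and 6 for Nuf2. Nuf2 was narrow as well, at 203, 201 and 222 bp. The region of Ndc80 was also within 1 kb of an end of its neighbour Spdya.

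Cenpe, a kinesin that carries chromosomes to the spindle equator, had the longest covered stretch. At 1 µM a single region of 1697 bp spanned its start, where 0.1 µM listed regions of 1268 and 455 bp and 0.5 µM regions of 986 and 342 bp. Cenpn, which reads CENP-A nucleosomes, had regions of 1376, 1088 and 1206 bp with scores of 53, 7 and 38. Scores of regions this wide call for care. Among pairs of matched regions of 1000 bp or more in 2 lists, 15.8% to 20.7% differed in score by more than 4 times. The median difference was removed first, and the share among pairs under 500 bp was 1.76% to 2.23%. Without replicate lists, a dose difference and an unsteady score cannot be told apart. Cenpk scored 23, 11 and 28, at a site within 1 kb of an end of Ppwd1. Cenph had 1 narrow region at 0.1 µM (264 bp, score 6), and Cenpa, the centromeric histone H3 variant, had none.

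Of the chromosomal passenger complex, which corrects faulty kinetochore attachments, Incenp, the scaffold, had a region at every dose with scores of 24, 7 and 25. Birc5, survivin, had narrow regions at 0.5 µM (212 bp) and 1 µM (267 bp), both with a score of 7. Aurkb, the kinase of the complex, had no region at a gene end. Its nearest region lay 7796, 7821 and 7796 bp past the gene, scored 4, 7 and 14, and was within 1 kb of an end of Borcs6.

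Spindle, midzone and cytokinesis genes held regions in 2, 3 and 5 of 7 cases. Ect2, the exchange factor that activates RhoA for furrow ingression, scored 29, 29 and 36 (percentiles 86.2, 91.0 and 87.1). Tpx2, a spindle assembly factor that activates Aurora A, scored 10, 9 and 38. Kif11, the kinesin that pushes spindle poles apart, had regions at 0.5 and 1 µM with a score of 5 each. Prc1, which bundles midzone microtubules, and Anln, the furrow scaffold anillin, were listed at 1 µM alone, with scores of 9 and 5, at sites also within 1 kb of an end of Rccd1 and of 9530077C05Rik. Kif20a and Kif23, both midzone kinesins, had none. Mki67, the proliferation antigen Ki-67, had regions of 280 bp at 0.1 µM and 199 bp at 0.5 µM that did not touch each other, with scores of 6 and 10, and none at 1 µM. Scores of the genes found at 1 or 2 doses were thus 10 or less, except for Ccnb1 and, at 1 µM, Cdk1 and Pttg1.

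Most regions at the mitotic genes lay at the start of the gene. Among the 29 genes with a known strand, 18, 18 and 21 had a region within 1 kb of the gene end that holds the start, against 19.0%, 18.2% and 22.4% of all genes with a strand. At the opposite end 0 of the 29 had one at any dose, and the background of 1.34%, 1.35% and 1.86% is too low for this count to differ from it. A region covered a start base itself in 14, 16 and 19 genes, against 16.2%, 15.1% and 19.3% of genes in the promoter table. Midpoints lay at a median of -48 bp from the nearest start site at 0.1 µM (20 regions), -70.5 bp at 0.5 µM (22) and -93.5 bp at 1 µM (22). Most midpoints were before the start: 13 of 20, 17 of 22 and 17 of 22. Midpoints around all genes are not given here, so this placement cannot be called particular to the mitotic genes. The regions farthest from a start were those of Ect2 at 0.5 and 1 µM, with midpoints at -1346 and -1275 bp.

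**Figure D2:**
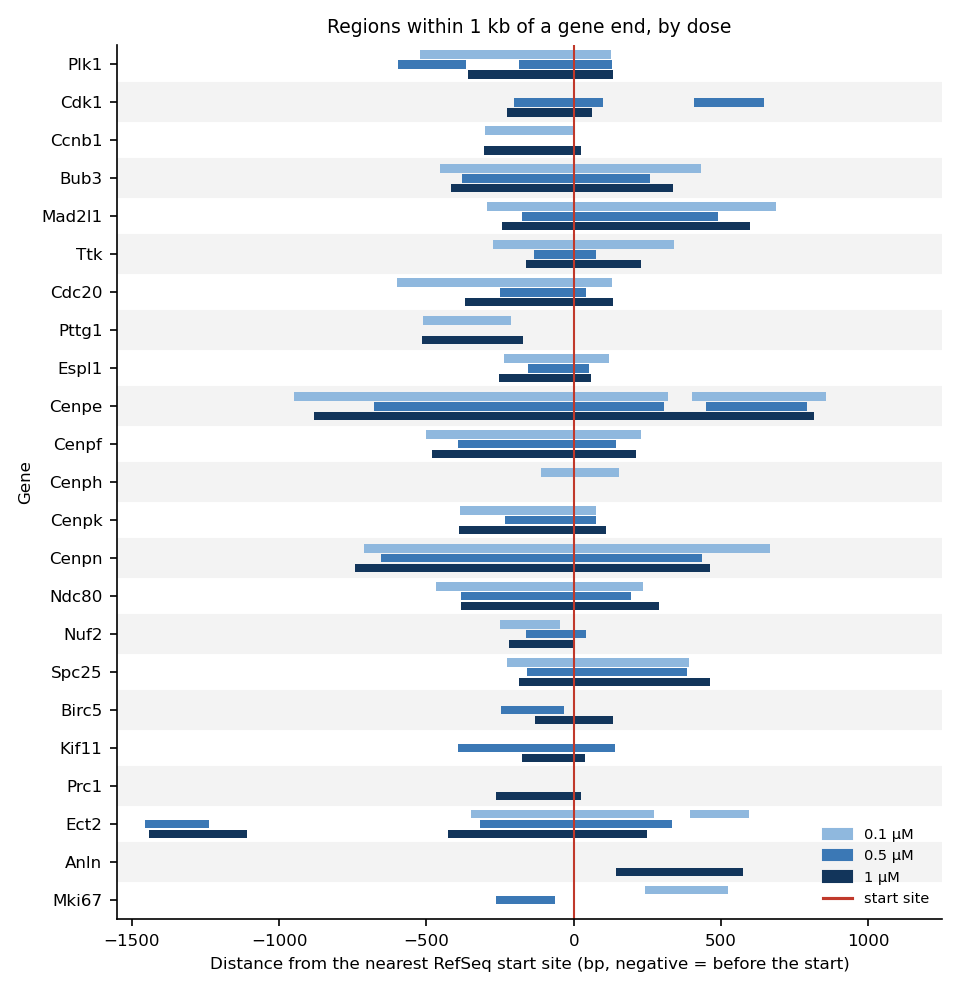
Bars show each listed region within 1 kb of a gene end for the genes with a known start site, as distance in bp from the nearest RefSeq start, coloured by dose. Most bars cross or adjoin the start line, with the separate Ect2 regions at 0.5 and 1 µM farthest before it.

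No region lay wholly inside a mitotic gene more than 1 kb from both ends, in any list: 0 of 36 genes against 10.8%, 8.81% and 12.0% of all protein-coding genes. Among genes in the same length range the shares were 7.20%, 6.13% and 8.61%. The interiors add up to 0.779 Mb, where a count of 0 allows up to 3.85 regions per Mb (3 counts, counting error only). In the same length range interiors held 4.98, 4.13 and 6.16 regions per Mb in order of dose, and those of all genes 4.78, 3.59 and 5.44. This location was singled out after its count of 0 was seen, so the limit is given as a description and not as support.

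From 1 to 10 kb outside the gene, regions were listed for 6, 3 and 7 of the 36 genes, against 11.0%, 10.3% and 13.7% of all genes. Several of these belong as closely to a neighbour. Those past the end of Cenpn were within 1 kb of ends of Atmin and Cmc2, and those past the end of Cenpe at 0.1 and 1 µM within 1 kb of an end of Bdh2. Aurka had 3 regions at 0.1 µM (scores 96, 5 and 26), 1 at 0.5 µM (score 5) and 3 at 1 µM (scores 25, 14 and 28), all past the end opposite its start. Those with scores of 96 and 25 were also within 1 kb of an end of Fam210b. Over the gene body with 10 kb either side, 23, 23 and 26 of the 36 genes had a region (63.9%, 63.9% and 72.2%), against 31.7%, 30.2% and 36.8% of all genes.

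**Figure D3:**
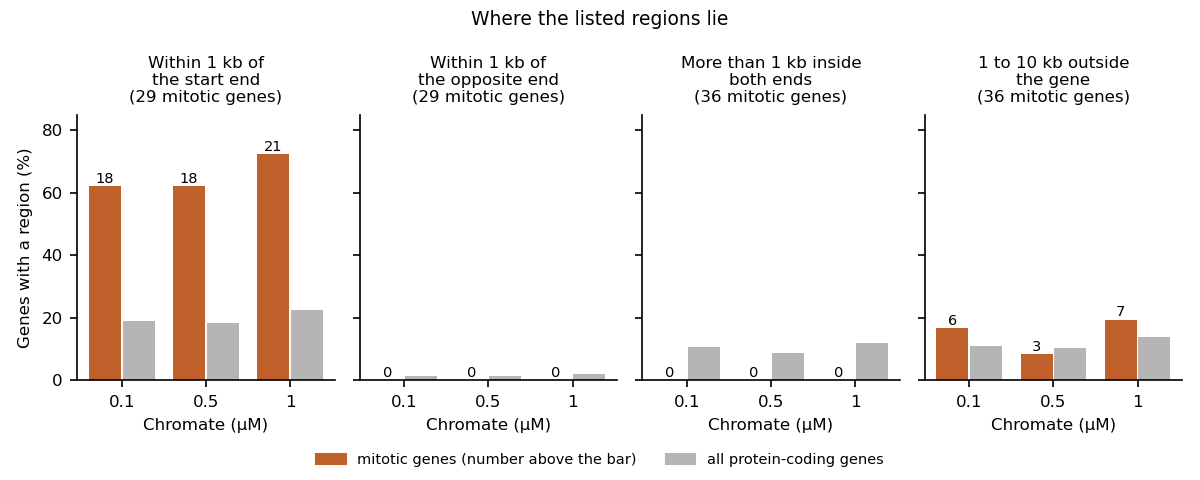
Bars give the percent of genes with a listed region in 4 locations at each dose in µM, for the mitotic genes (number of genes above each bar) and for all protein-coding genes. The mitotic genes stand above the background at the start end, with 18, 18 and 21 of 29 genes. At the opposite end all genes are at most at 1.86%, so the count of 0 there does not set the mitotic genes apart.

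Width and rank of the listed regions were set beside those of all listed genes. In the 0.1 µM list the highest region of each of the 21 listed mitotic genes had a median width of 615 bp and a median percentile of 78.4, against 449 bp and 59.6 for all 4216 genes with a region. At 1 µM the medians were 462 bp and 76.8 for 24 mitotic genes, against 455 bp and 60.3 for 4971 genes. At 0.5 µM they were 316 bp and 49.3 for 21 mitotic genes, against 391 bp and 59.5 for 4055 genes. In that list 8 of the 21 (38.1%, against 24.3% of all listed genes) lay in the lowest 25% of scores, namely Cdk1, Ccna2, Ttk, Espl1, Cenpn, Birc5, Incenp and Kif11. Of these, Cdk1, Cenpn, Birc5 and Incenp shared a score of 7, whose percentile of 24.98 is just under that line. At 0.1 and 1 µM, 4 of 21 and 4 of 24 lay in the lowest 25% (19.0% and 16.7%, against 19.9% and 19.1%). Above the 90th percentile were 4 genes in each list (19.0%, 19.0% and 16.7%, against 16.9%, 14.6% and 16.3% of all listed genes). These values describe listed genes only, and a threshold set by the authors decided which were listed.

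Neighbouring genes were counted around each mitotic gene. No region at a gene end was found in the lists for 10 of the 36 genes: Aurka, Ccnb2, Cdc25c, Bub1, Bub1b, Cenpa, Spc24, Aurkb, Kif20a and Kif23. The region names run in number, and 1 number is skipped between the regions on either side of Aurka in every list. Around Cenpa 1 is skipped at 0.5 µM and 2 at 1 µM, and none around the other 8. The list names hold the word filtered without explaining it, and what the skipped numbers stood for is not known. Neither Aurka at any dose nor Cenpa at 0.5 and 1 µM can therefore be called free of regions.

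Around these 10 genes, a median of 6.26%, 6.97% and 11.3% of the other protein-coding genes within 1 Mb had a region at an end. Around all genes without a region the medians were 11.9%, 12.5% and 16.7%. The low medians depend on the span: within 0.5 Mb they were 9.60%, 11.5% and 12.9%, against 10.5%, 11.1% and 14.3%, and within 2 Mb 9.22%, 11.1% and 17.8%, against 13%, 13.4% and 18.0% for all genes without a region. Leaving out Aurka and Cenpa gave the same medians within 1 Mb (6.26%, 6.97% and 11.3%). Aurka lay above and Cenpa below the median in each list, so these medians could not change and are no check. Around the 17 genes with a region at every dose the medians were 25%, 24.5% and 28%. These were slightly below the 28.6%, 26.5% and 30.7% around all genes with a region in the list concerned, again a set chosen by a single list. The lists share the untreated libraries, so presence in all of them is a description.

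Around Cenpa, 0 of 53 neighbours had a region at any dose. The regions on either side of Cenpa were 6.59, 11.5 and 8.64 Mb apart in order of dose. Kif23 had regions at 0 of 13 neighbours at 0.1 and 0.5 µM and at 1 of 13 at 1 µM, in a stretch without regions of 13.3, 12.4 and 2.47 Mb. Ccnb2, on the same chromosome, had them at 0, 0 and 1 of 15. Cdc25c and Kif20a, which lie close together, had 2 of 33 and 2 of 26 at every dose. Aurkb had 3, 5 and 12 of 80, and Spc24 4, 8 and 16 of 62. Bub1b had 4, 7 and 8 of 37.

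Bub1 and Aurka were above the medians around all genes (14.3%, 14.3% and 19.5%) in each list, with regions at 10, 13 and 16 of 30 neighbours for Bub1 and at 7, 7 and 9 of 18 for Aurka. Bub1b was above them at 0.5 and 1 µM (18.9% and 21.6%) and Spc24 at 1 µM (25.8%). The listed genes were not free of poor surroundings: Spc25 had a region at every dose, although the 0.5 µM list held 1 region within 1 Mb of it, its own. How much the surroundings bear on the missing regions was not tested.

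**Figure D4:**
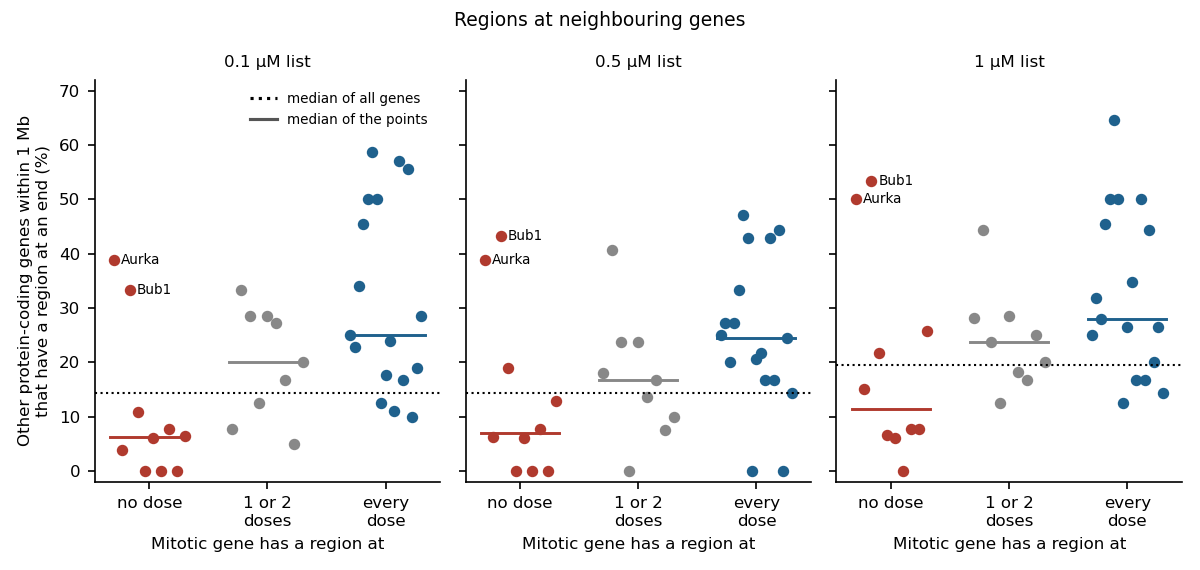
Each point is a mitotic gene, placed by the percent of other protein-coding genes within 1 Mb that have a region at an end, with 1 panel per list and columns for genes with a region at no dose, at 1 or 2 doses and at every dose. Bars are medians and the dotted line is the median around all genes. Genes with no region lie mostly below the dotted line, except Aurka and Bub1 in each panel, Bub1b at 0.5 and 1 µM and Spc24 at 1 µM.

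Motif matches were found in genes with and without a region. TTTGAA, the CHR letters, stood in a promoter window (250 bases before to 50 after a start, either strand) of 20 of 29 mitotic genes, 69.0%, against 18% of 17274 genes. CCAAT was found in 23 of 29 (79.3% against 42.7%), and a CCAAT box together with TTTGAA or TTCGAA in 19 of 29 (65.5% against 9.33%). That pair was present in 9 of the 14 genes with a region at every dose and in 6 of the 6 with none. Among genes with a region at 1 µM as a whole, 9.29% held it. Counting the start base as 1, the CHR of Cdc20 lies at -18 to -13 between CCAAT boxes that begin at -53 and -8. In Plk1 the CCAAT box begins at -14 and the CHR at 31 bases after the start, outside the stretch printed above. Bub1 has CCAAT letters at -42 on the forward and at -68 on the reverse strand, and TTCGAA at 15 after the start.

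The GC box GGGCGG was found in 25 of 29 mitotic promoters (86.2% against 49.8% of all). Among genes with a region at 1 µM as a whole, 70.2% held it. It was in 13 of the 14 mitotic genes with a region at every dose and in 4 of the 6 with none. TTCCCGC was in 3 of 29 (10.3%, against 6.93% of all and 9.89% of genes with a region at 1 µM). A core of the CTCF motif was in 0 of 29, against 11.4% of all promoters and 15.6% of those of genes with a region at 1 µM. The windows are 300 bases long, so no match says only that these letters are not in them. A match is likewise a description of letters and not a bound site.

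**Figure D5:**
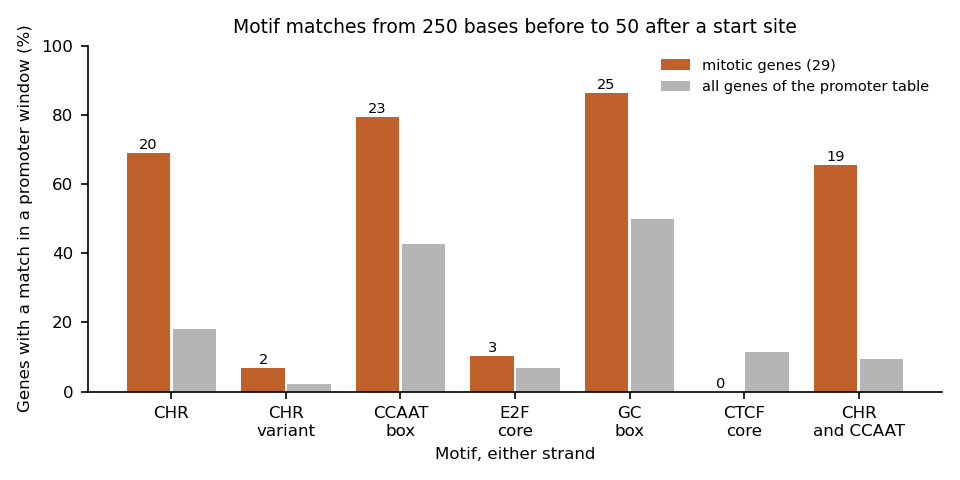
Bars give the percent of genes with at least 1 match of each motif, on either strand, in the window from 250 bases before to 50 after a start site, for 29 mitotic genes (number above each bar) and all 17274 genes of the promoter table. The pair at the right counts a CCAAT box with a CHR or its variant. The mitotic genes exceed all genes for the CHR, the CCAAT box, their pair and the GC box. Their matches of the CHR variant and the E2F core are few, in 2 and 3 of 29 genes, and those of the CTCF core are 0.

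A further 95 genes of mitosis and its regulation, listed apart from the 36, held regions at a gene end in 48, 51 and 60 cases (50.5%, 53.7% and 63.2%, against 19.5%, 18.7% and 23.0% of all genes). Entry regulators had 7, 6 and 8 of 10, with Bora, the cofactor through which Aurora A activates PLK1 (scores 48, 22 and 46), Mastl, the Greatwall kinase (26, 20 and 22), and Nek2, a centrosomal kinase (28, 14 and 28). Checkpoint and anaphase-promoting complex genes had 9, 12 and 14 of 25, with Fbxo5, an inhibitor of that complex (48, 30 and 60), its ubiquitin-conjugating enzyme Ube2c (9, 32 and 33) and its subunit Cdc26 (28, 12 and 16).

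Centromere and kinetochore genes outside the 36 had 12, 12 and 17 of 23. The centromere-associated network subunits Cenpq (scores 82, 40 and 79) and Cenpw (69, 30 and 79) and Mis12 of the outer kinetochore linker (58, 36 and 84) had the best mean percentiles. Spindle and cytokinesis genes had 13 of 21 in each list, led by Aspm, a spindle pole protein (206, 77 and 243, in regions of 1629, 1147 and 1558 bp), then Kif18a, a kinesin that limits microtubule length (36, 26 and 46), and Kif20b (35, 25 and 28). Regulators of the G2 and M genes themselves had 7, 8 and 8 of 16, with E2f5 (43, 23 and 70) and Rbl2, the p130 pocket protein (28, 8 and 26), both DREAM components, and Mybl2, the gene of B-MYB (36, 23 and 35). Foxm1, Lin54, Rbbp4, Tfdp1, Rbl1 and Nfyc had no listed region at a gene end at any dose. Lin9 and E2f4 were listed at 0.5 µM alone (score 6 each) and Lin37 at 1 µM alone (score 9). Regions wider than 1000 bp gave the scores of Aspm in every list and of Bora at 0.1 and 1 µM. The same holds for Cenpq, Mis12 and Rbl2 at 1 µM. These scores need the same care as that of Cenpn. In the interiors of these 95 genes, more than 1 kb from both ends, 9, 7 and 9 genes held a region. These are 9.47%, 7.37% and 9.47%, near the 10.8%, 8.81% and 12.0% of all genes.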

How the data were processed

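The submitters' processing notes name Bowtie2, Picard, MACS2 and the build mm10, without versions or roles. The deposited files are 3 region lists, each with a score per region, the authors' own whole number, on a scale that no source used here states. Nor is it explained how control and replicates were used, or how duplicates and Tn5 offsets were handled. The threshold is not described beyond the list names. These carry a tag starting with q, which may stand for a cutoff, and the words filtered and unique, without explanation. List length and score may thus differ between doses for technical reasons. Here Python 3.11.15 and pandas 2.3.3 were used. A gene counted as having a region when any base of 1 lay within 1 kb of a gene end in RefSeq's GRCm38.p6 table, whose strand and start sites came from its promoter table. Window assignment was tested on simulated data. Each list is 1 value per dose, so counts were set beside those of all protein-coding genes and no test was run. All 36 genes are named. Of 95 further genes, at most 3 per group with a region at every dose were named, by mean score percentile. Among the G2 and M regulators, those with a region at no dose or at a single dose were named as well. The genes and lists were chosen with earlier results of these data known. The printed promoters and the neighbouring genes were chosen after regions were seen.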

Additional observations from a re-analysis of the deposited data

How the results depend on the processing

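Of 43 counts recomputed under another setting, 35 stayed within 1.5 times their value. Kept to the 50% of regions with the highest score, the 0.5 µM list had 9 mitotic genes with a region at a gene end (11.3% of all genes). It had 9 when the body and 10 kb flanks were searched (18.8% of all genes). Under the same setting 30 of the further 95 genes had a region at a gene end at 0.1 µM and 29 at 0.5 µM, against 11.8% and 11.3% of all genes. Kept to the widest 50%, the 0.5 µM list gave 10 at gene ends and 10 with the gene body (12.2% and 19.2% of all genes), and the 1 µM list 15 and 16 (15.4% and 24.0%). Fewer regions enter by construction. A window of 500 bp left Ccna2 and Pttg1 without a region at any dose. The 0.5 and 2 Mb spans for neighbours, and leaving out Aurka and Cenpa, were chosen after seeing the data. Against the low medians around genes without a region at 1 Mb, those within 0.5 Mb moved by over 1.5 times at 0.1 and 0.5 µM but not at 1 µM. Those within 2 Mb did so at 0.5 and 1 µM but not at 0.1 µM. No library could be left out, since each list stands for a dose. No paired analysis was possible because the lists carry no replicates and no test was run. The unknown depth and the unexplained threshold limit every absence.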
